A study of Caenorhabditis remanei with 28 samples.

Results

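The genes described here are 38 of the 25337 gene identifiers counted in first-stage (L1) larvae of the nematode Caenorhabditis remanei, and they share a low level in a population selected for resistance to oxidative stress. Each had a mean of at least 5 CPM (counts per 1000000 gene counts) in the heat-selected, the control-selected and the ancestral population. Each also had a mean in the oxidative-selected population of at most 0.5 times every one of those 3 means. The means were taken over replicates 1 to 6, and over replicates 3 to 6 of the ancestor. The low oxidative level is how the genes were chosen and carries no test. The floor of 5 CPM in the 3 other populations was met by 8428 identifiers, of which the 38 genes are 0.451%.

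Poly-A RNA from pools of about 100000 larvae was sequenced in 28 libraries. The oxidative population (n = 6, replicates 1 to 6), the heat population (n = 8, replicates 1 to 8) and the control population (n = 8, replicates 1 to 8) had been derived by selection from the ancestor (n = 6, replicates 3 to 8), which is the strain PX443. The labels name 1 population per selection regime, so that the regime and the history of that population cannot be told apart. Embryos were freed by bleaching and kept for 20 h in buffer without food, and the larvae that hatched were frozen. By the series design, the temperature was 20 °C throughout. The protocol also names a warmer incubation, and sample titles state a temperature in the control and ancestor populations alone. No label says that replicates came from separate cultures, so the p-values below measure the spread between these samples, which may be technical.

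Caenorhabditis remanei has males and females and mates outside its own line, so its populations carry much genetic variation on which selection in the laboratory can act. Caenorhabditis larvae that hatch without food stop at the first larval stage and live on stored reserves. Oxidative stress is damage by reactive oxygen, against which nematodes use antioxidant and detoxifying enzymes and the repair or removal of damaged proteins. None of the 25337 identifiers matched a RefSeq gene table of the species, so each gene carries its identifier alone, and functions, positions and sequences were not analysed here.

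The libraries held between 1406684 and 15755610 gene counts, and the 6 oxidative ones between 3103341 and 5754254. A level of 3 counts was worth 0.521 to 0.967 CPM in the oxidative libraries. Every one of the 38 genes had at least 1 count in every library, and 27 of them had at least 10 counts in each oxidative library. Because most genes of a library shift up or down together in plain CPM (by between -0.53 and 0.58 log2 units in the library median), levels per library are given as CPM after scaling by the trimmed mean of M-values (scaled CPM). Neither scale is corrected for gene length, so levels are compared between samples and not between genes. In whole larvae, fewer cells of a type and less RNA per cell cannot be told apart.

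Summed over the 38 genes, the oxidative libraries spent a small and even share of their counts. The share was 0.0661% to 0.0769% of gene counts in oxidative libraries, against 0.186% to 0.317% in heat, 0.252% to 0.417% in control and 0.182% to 0.285% in ancestor libraries. The means were 0.0701% ± 0.00447 (SD, n = 6) in oxidative, 0.229% ± 0.0482 (n = 8) in heat, 0.296% ± 0.0522 (n = 8) in control and 0.234% ± 0.0337 (n = 6) in ancestor larvae. No oxidative library overlapped any other library in this sum, on whose parts the genes were chosen. FL81_19375 alone held between 13.6% and 81.5% of these counts. Without it, a sum added after seeing the data, the mean shares were 0.0450%, 0.150%, 0.149% and 0.121% in the same order of populations.

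Unaligned reads moved with the oxidative population too. They made up 32.6% to 37.5% of reads in oxidative libraries, against 15.7% to 27.9% in heat, 16.7% to 33.5% in control and 18.2% to 35.0% in ancestor libraries. The part of unaligned reads in the low levels was not tested. Ancestor replicate 6 and control replicate 5, with 35.0% and 33.5% unaligned, lay within the oxidative range of unaligned reads and spent 0.228% and 0.252% of their gene counts on the 38 genes. Reads outside annotated genes made up 15.1% to 19.8% in oxidative libraries, 21.0% to 39.1% in heat, 13.3% to 22.7% in control and 10.6% to 22.5% in ancestor libraries.

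**Figure D1:**
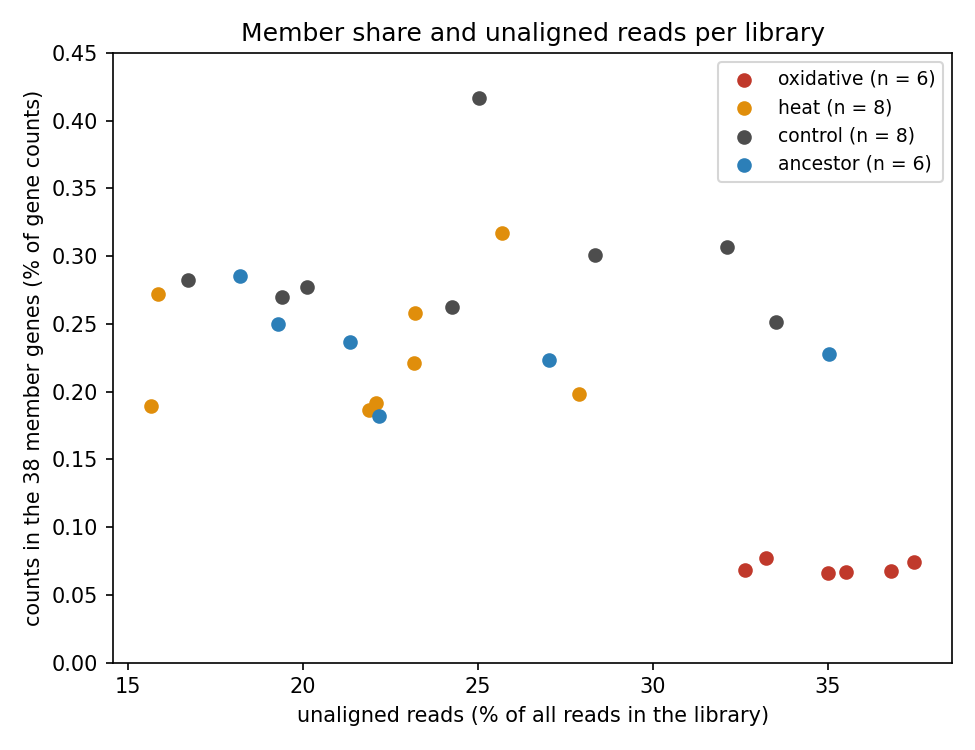
Each point is 1 library, with the percentage of its reads that were not aligned on the horizontal axis and the percentage of its gene counts that fell in the 38 genes on the vertical axis. The 6 oxidative libraries sit between 0.0661% and 0.0769%, and the control and ancestor libraries with 33.5% and 35.0% of reads unaligned sit at 0.252% and 0.228%.

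The size of the deficit differed among the 38 genes. The oxidative mean, in plain CPM, was between 20.6% (FL81_17394) and 49.6% (FL81_10775) of the lowest of the 3 other means. It was 0.4 to 0.5 of that mean in 24 genes, 0.25 to 0.4 in 13 and less in FL81_17394 alone. The median over the 38 genes was 35.0% of the heat mean, 31.7% of the control mean and 39.0% of the ancestor mean. The genes spanned low and high counts, with 11 whose average over the 3 other populations was under 10 CPM and 5 at 100 CPM or more. Applied with another population in the place of the oxidative one, the rule picked 6 genes low in heat, 1 low in control and 4 low in ancestor larvae. In the opposite direction, 12 genes that met the floor had an oxidative mean of at least double each other mean.

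**Figure D2:**
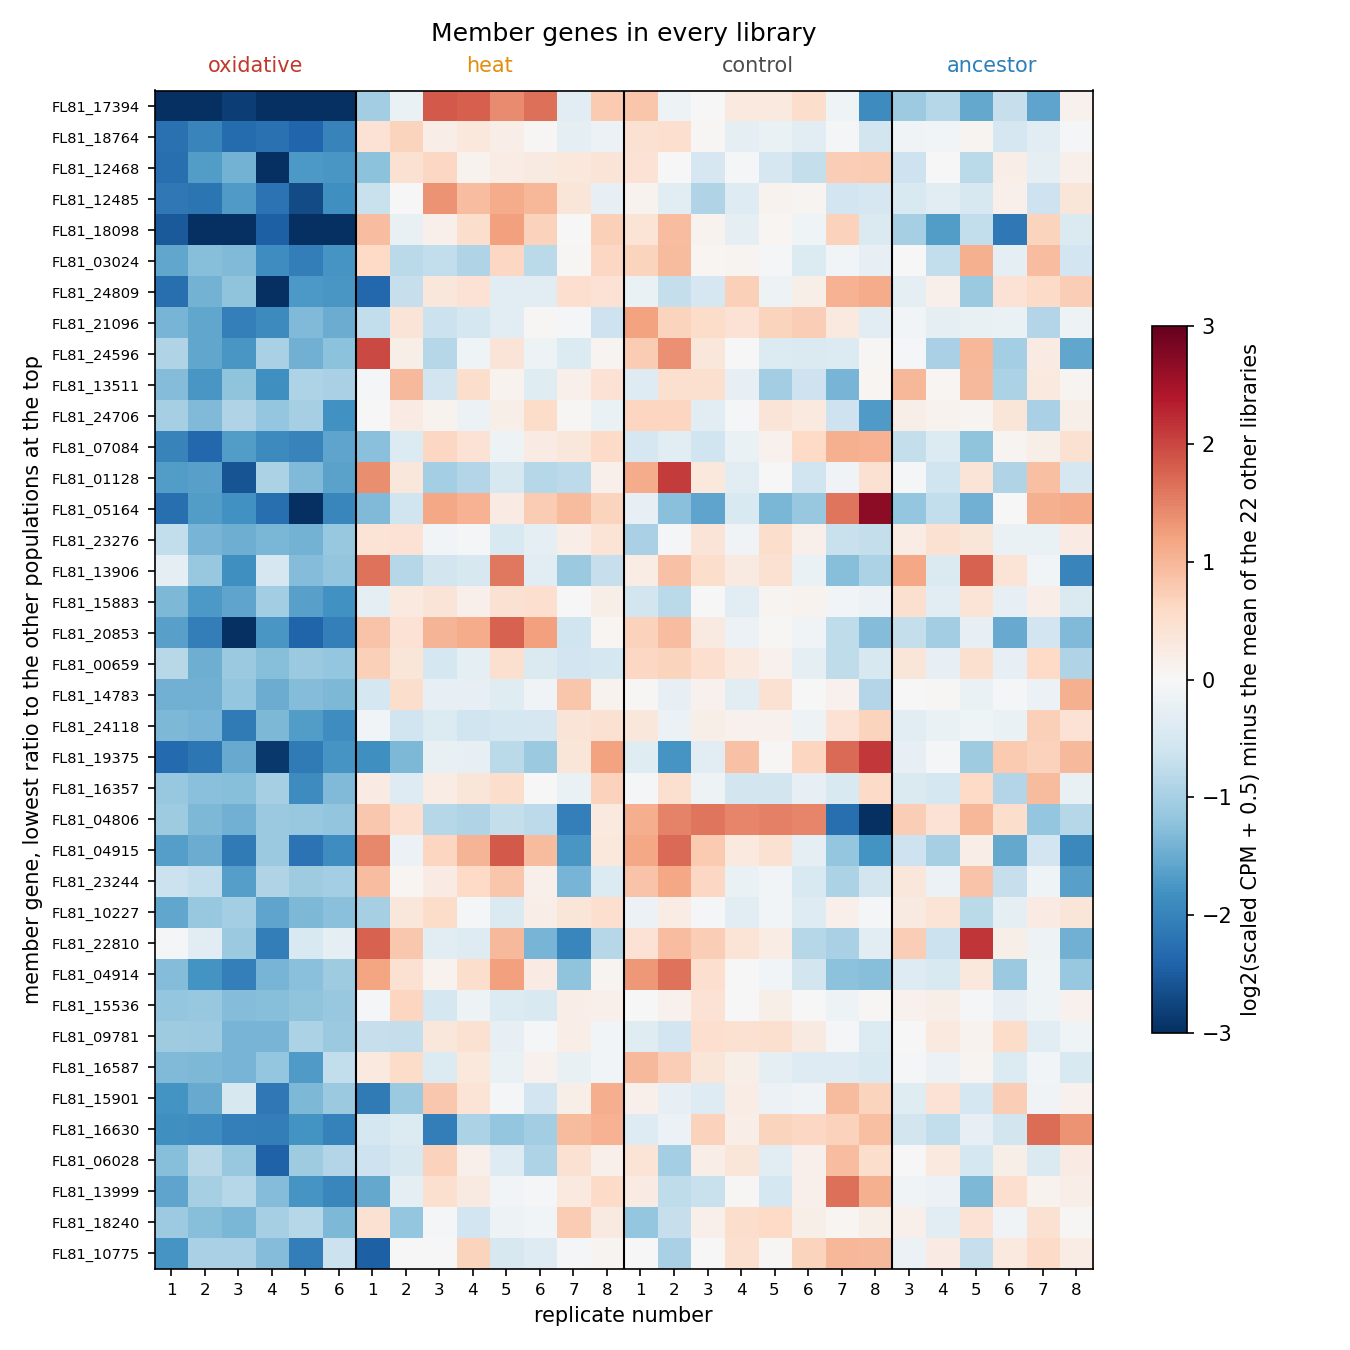
Rows are the 38 genes and columns are the 28 libraries, grouped by population and numbered by replicate. Colour gives log2(scaled CPM + 0.5) minus the gene's mean over the 22 libraries of the 3 other populations. Values beyond -3 and 3 are drawn at these ends. The oxidative columns are blue in nearly every row. FL81_22810 turns blue in replicates 7 and 8 of the other populations, and so does FL81_04806 except in heat replicate 8. Both rows are also blue in further libraries, among them heat replicates 3, 4 and 6.

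In scaled CPM, all 22 libraries of the other populations lay above all 6 oxidative libraries in 18 of the 38 genes, against 0.519% of the 11952 genes tested. In plain CPM the count was 13, against 0.335%. FL81_18098, FL81_14783, FL81_20853, FL81_15883, FL81_16357 and FL81_16587 were apart in scaled CPM alone, and FL81_19375 in plain CPM alone. The genes were chosen on most of these libraries, so nothing is read from these shares. In a count model fitted with edgeR to all 28 libraries, 31 of the 38 genes were called lower in oxidative larvae than in each of the heat, control and ancestor populations (adjusted p under 0.05 in all 3 comparisons), against 1.96% of genes tested. The single comparisons called 35 lower than in heat (5.33% of genes tested), 36 lower than in control (7.1%) and 31 lower than in ancestor larvae (3.16%). The median log2 fold change of the 38 genes was -1.57 against heat, -1.80 against control and -1.51 against ancestor larvae, and that of all genes tested was -0.03 in each comparison. These 3 comparisons share the oxidative libraries and were used by the rule, so they describe the genes and give no test of them.

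Levels by population are given from here on as the lowest, the median and the highest library. The gene with the deepest deficit was FL81_17394. Its lowest, median and highest scaled CPM were 6.20, 8.92 and 14.9 in oxidative larvae, 52.0, 236 and 387 in heat, 28.9, 119 and 193 in control and 35.9, 54.6 and 119 in ancestor larvae. Every oxidative library lay below every other library, and the heat libraries ranged more widely than those of any other population. The fold change of oxidative larvae on the log2 scale was -4.51 (SE 0.46) against heat, -3.57 (SE 0.44) against control and -2.63 (SE 0.44) against ancestor larvae. Its high heat mean rested on replicates 3 to 6, which held 287 to 387 scaled CPM, against 52.0 to 186 in the other 4 heat libraries.

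FL81_18098 came next in fold change against heat and against control larvae. It held 2.23, 3.50 and 5.42 scaled CPM in oxidative larvae, 27.3, 49.2 and 75.2 in heat, 23.7, 34.0 and 61.7 in control and 6.80, 17.3 and 50.9 in ancestor larvae. On this scale the oxidative libraries again lay below all others, and ancestor replicates 6 and 4 were the nearest to them. In plain CPM ancestor replicate 6, at 5.52, lay below the highest oxidative library, at 6.77. Its log2 fold change was -3.67 (SE 0.38) against heat, -3.32 (SE 0.37) against control and -2.48 (SE 0.38) against ancestor larvae.

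In FL81_18764 both sides were narrow. Oxidative larvae held 10.8, 12.1 and 14.6 scaled CPM, heat 47.9, 67.9 and 94.1, control 40.1, 54.1 and 83.6 and ancestor larvae 41.5, 55.2 and 61.9. The highest oxidative library stayed far below the lowest of the 22 others, at 40.1. The log2 fold change was -2.42 (SE 0.18) against heat, -2.21 (SE 0.18) against control and -2.07 (SE 0.18) against ancestor larvae.

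FL81_12485 and FL81_12468 complete the 5 genes with the lowest ratios. FL81_12485 held 3.03, 4.57 and 6.51 scaled CPM in oxidative, 13.7, 35.6 and 57.1 in heat, 11.6, 17.1 and 23.7 in control and 14.1, 16.8 and 28.4 in ancestor larvae. FL81_12468 held 0.258, 1.72 and 2.23 in oxidative, 2.65, 8.47 and 10.8 in heat, 3.97, 6.66 and 11.9 in control and 3.68, 6.24 and 7.87 in ancestor larvae. Neither gene overlapped between oxidative and other libraries. FL81_12468 rested on few reads, with 1 to 12 counts per oxidative library.

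FL81_15536, FL81_14783 and FL81_10227 were picked for a narrow oxidative spread by the coefficient of variation of plain CPM. FL81_16630 was added after its values were seen. In scaled CPM the coefficients of these 4 genes were 5.12% to 16.2%. FL81_04806 (10.07%), FL81_18764 (12.2%), FL81_09781 (14.1%) and FL81_00659 (15.04%) lay within that range as well. FL81_15536 held 30.5, 33.1 and 34.3 scaled CPM in oxidative larvae, the smallest oxidative coefficient of variation of the 38 genes on that scale, against 52.6, 70.6 and 118 in heat, 67.7, 76.7 and 101 in control and 63.5, 77.6 and 85.6 in ancestor larvae. FL81_14783 held 30.98, 33.4 and 39.4 in oxidative, 61.3, 78.3 and 158 in heat, 47.9, 89.7 and 122 in control and 76.5, 87.9 and 185 in ancestor larvae. FL81_10227 held 12.9, 15.9 and 19.5 in oxidative, 19.8, 48.3 and 58.3 in heat, 30.1, 38.2 and 46.4 in control and 22.5, 47.5 and 52.6 in ancestor larvae. None of these 3 genes overlapped between the oxidative and the other libraries in scaled CPM. In plain CPM 1 library of FL81_14783, control replicate 8 at 38.1, lay below its highest oxidative library, at 38.7. FL81_16630 held 10.8, 12.1 and 13.4 in oxidative larvae, a coefficient of variation of 9.05%, against 10.8, 28.6 and 99.0 in heat, 36.3, 74.5 and 88.9 in control and 28.4, 36.1 and 152 in ancestor larvae. Heat replicate 3, with 10.8 scaled CPM, lay level with its lowest oxidative library.

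FL81_20853 and FL81_05164 also kept apart in all libraries in scaled CPM, by a narrow margin at the nearest one. In plain CPM 3 libraries of FL81_20853 lay at or below its highest oxidative one. FL81_20853 held 8.18, 17.8 and 24.5 scaled CPM in oxidative, 50.1, 147 and 261 in heat, 30.8, 74.7 and 146 in control and 26.5, 41.6 and 64.7 in ancestor larvae, and its nearest library was ancestor replicate 6. FL81_05164 held 0.650, 2.36 and 3.37 in oxidative, 4.41, 19.7 and 26.8 in heat, 3.58, 6.77 and 78.1 in control and 4.04, 9.42 and 25.9 in ancestor larvae. Its highest values were control replicates 8 and 7, at 78.1 and 36.8, above the 3.58 to 9.80 of the other 6 control libraries. FL81_21096, near the floor of the rule, held 1.12, 1.84 and 2.17 in oxidative, 3.53, 4.53 and 8.26 in heat, 4.86, 9.75 and 15.1 in control and 3.17, 5.32 and 5.80 in ancestor larvae.

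The other 7 genes whose oxidative libraries all lay below all other libraries in scaled CPM were FL81_03024, FL81_07084, FL81_15883, FL81_24118, FL81_16357, FL81_09781 and FL81_16587. FL81_24118 averaged 6.42 ± 1.45 scaled CPM (SD) in oxidative (n = 6), 18.1 ± 6.14 in heat (n = 8), 23.9 ± 4.83 in control (n = 8) and 21.96 ± 7.08 in ancestor larvae (n = 6). FL81_15883 averaged 4.78 ± 1.09 in oxidative, 17.1 ± 2.97 in heat, 12.6 ± 2.71 in control and 15.1 ± 4.30 in ancestor larvae. FL81_07084 averaged 2.62 ± 0.581 in oxidative, 12.5 ± 4.55 in heat, 13.8 ± 6.89 in control and 9.90 ± 4.10 in ancestor larvae. The remaining 4 of these genes showed the same order of oxidative below all others at low counts. Their oxidative means were 3.44 ± 0.834 in FL81_03024, 3.51 ± 0.749 in FL81_16357, 4.03 ± 0.568 in FL81_09781 and 7.28 ± 1.82 in FL81_16587, and their heat means 11.4 ± 5.70, 10.9 ± 2.77, 9.38 ± 2.84 and 19.0 ± 4.53.

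**Figure D3:**
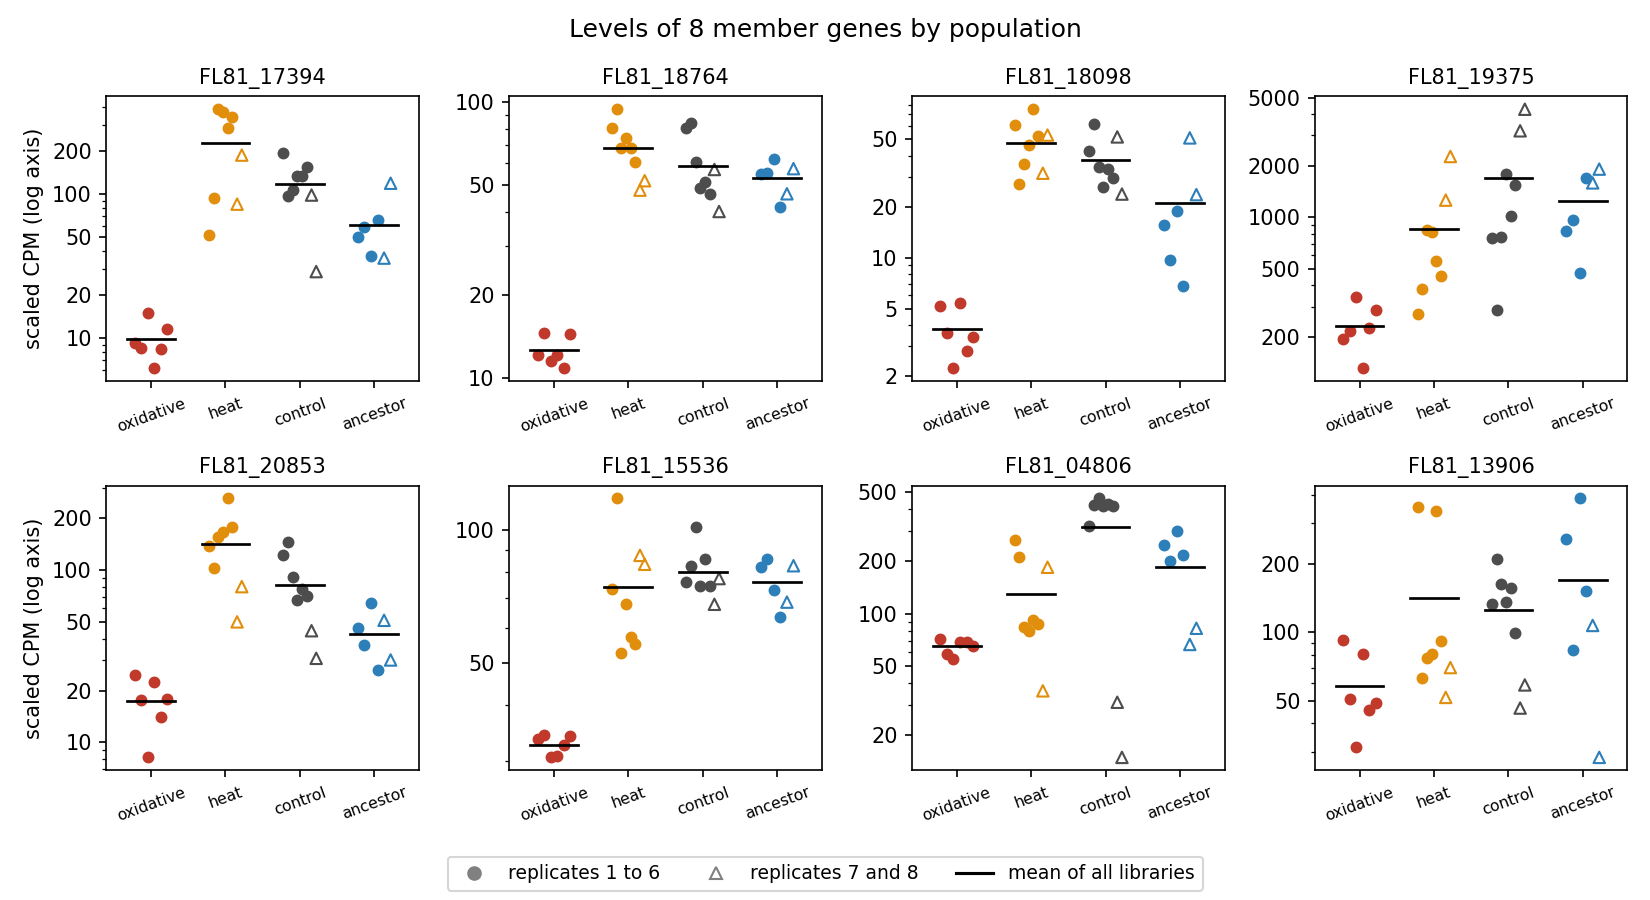
Scaled CPM on a log axis for 8 of the genes, with 1 symbol per library (filled circles for replicates 1 to 6, open triangles for replicates 7 and 8) and a line at the mean of all libraries of the population. FL81_17394, FL81_18764, FL81_18098, FL81_20853 and FL81_15536 show no overlap between oxidative and other libraries; in FL81_04806 the control replicates 7 and 8, at 30.995 and 14.9, lie under the oxidative libraries.

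In the remaining 20 genes at least 1 library of another population lay at or below the highest oxidative library. In these genes the oxidative deficit is one of means and not of every library. In 18 of them it was between 1 and 5 of the 22 libraries that overlapped. FL81_22810 overlapped most, with 11 libraries, and FL81_13906 next, with 10. FL81_22810 held 0.516, 2.76 and 3.62 scaled CPM in oxidative, 0.606, 2.82 and 14.1 in heat, 1.67, 4.80 and 7.60 in control and 1.07, 3.81 and 18.4 in ancestor larvae. Its ancestor mean of 5.98 ± 6.38 included replicate 5 at 18.4, the highest of all 28 libraries.

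FL81_13906 held 31.4, 50.2 and 92.6 scaled CPM in oxidative larvae, 52.0, 79.1 and 352 in heat, 46.7, 134 and 209 in control and 28.4, 129.6 and 386 in ancestor larvae. Heat replicates 1 and 5 (352 and 339.9) and ancestor replicates 5 and 3 (386 and 256) were high, and 6 of 8 heat libraries lay within the oxidative range. Its log2 fold change was -1.27 (SE 0.49) against heat, -1.09 (SE 0.48) against control and -1.53 (SE 0.51) against ancestor larvae, and it was not called lower in any of the 3 comparisons.

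FL81_04806 was low in several of the libraries numbered 7 or 8. Oxidative larvae held 55.2, 67.0 and 72.1 scaled CPM, heat 36.1, 89.4 and 265, control 14.9, 416 and 461 and ancestor larvae 66.6, 210.2 and 301. The 4 libraries at or below the highest oxidative one were heat replicate 7, control replicates 7 and 8 and ancestor replicate 7, all outside the libraries that the rule used. Heat replicate 8, with 185, and ancestor replicate 8, with 82.6, lay above every oxidative library. Among the heat libraries that the rule used, replicates 3 to 6 held only 79.9 to 91.8, against 72.1 in the highest oxidative library. The high heat values in that set were replicates 1 and 2, at 265 and 214. Control replicates 1 to 6 held 319.7 to 461, above every library of the other populations.

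FL81_04914 and FL81_04915 were the only pair among the 38 with consecutive identifiers. FL81_04914 held 4.46, 7.49 and 9.26 scaled CPM in oxidative, 8.33, 25.6 and 47.2 in heat, 7.99, 19.3 and 62.5 in control and 8.78, 14.8 and 24.9 in ancestor larvae. FL81_04915 held 2.38, 3.50 and 5.68 in oxidative, 3.48, 22.9 and 47.8 in heat, 3.36, 17.0 and 43.5 in control and 3.04, 7.31 and 14.9 in ancestor larvae. In both genes the libraries at or below the highest oxidative one were heat replicate 7, control replicates 7 and 8 and ancestor replicates 6 and 8. Over the 22 libraries outside the oxidative population they were the pair most alike of the 38 genes. Pearson's r of log2 scaled CPM was 0.94 there, with differences between the 3 populations left in, and 0.06 over the 6 oxidative libraries. The counting could have split reads between near-identical copies, and whether the pair are copies was not tested.

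FL81_19375, with the most counts of the 38, held 131, 221 and 344 scaled CPM in oxidative, 271, 689.6 and 2262 in heat, 288, 1277 and 4270.4 in control and 471, 1272 and 1909 in ancestor larvae. Heat replicate 1 and control replicate 2, at 271 and 288, lay inside the oxidative range, and control replicates 8 and 7, at 4270.4 and 3195, were the highest of all. FL81_01128 held 2.05, 4.51 and 7.49 in oxidative, 7.01, 9.40 and 39.7 in heat, 9.57, 16.6 and 65.0 in control and 7.69, 12.2 and 27.98 in ancestor larvae, with 1 library, heat replicate 3, inside the oxidative range. FL81_24809, FL81_23276 and FL81_00659 each had 1 library at or below their highest oxidative one. FL81_24706 and FL81_06028 had 2 each, and FL81_15901, at 9.04, 15.3 and 29.8 in oxidative, 9.26, 43.8 and 90.0 in heat, 31.98, 42.8 and 81.7 in control and 29.1, 42.4 and 70.1 in ancestor larvae, had 4.

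The 7 genes not called lower in all 3 comparisons were FL81_24596, FL81_13906, FL81_04806, FL81_04915, FL81_23244, FL81_22810 and FL81_04914. All 7 missed the threshold against the ancestor. FL81_13906 and FL81_22810 missed it against heat and control as well, and FL81_04806 against heat. FL81_23244 averaged 12.2 ± 2.81 scaled CPM in oxidative, 29.7 ± 12.8 in heat, 28.6 ± 15.5 in control and 23.8 ± 12.9 in ancestor larvae. FL81_24596 averaged 2.00 ± 0.577 in oxidative, 7.505 ± 6.56 in heat, 6.94 ± 3.88 in control and 5.05 ± 3.74 in ancestor larvae.

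The genes on both sides of the ratio limit differed little in ratio. In plain CPM, the oxidative mean was 49.6% of the lowest other mean in FL81_10775 (3.03 in oxidative, 6.11 in heat, 7.81 in control, 6.64 in ancestor larvae). It was 49.3% in FL81_18240 (6.40, 13.0, 14.1 and 14.5 in the same order) and 48.9% in FL81_13999 (10.02, 23.0, 21.8 and 20.5). Just outside were FL81_11197 at 50.4% (12.6, 42.9, 37.9 and 24.96), FL81_25012 at 50.4% (73.7, 146, 166 and 153) and FL81_07314 at 50.7% (6.18, 20.6, 19.3 and 12.2). At the floor of 5 CPM, FL81_13511 and FL81_21096 were inside with a lowest other mean of 5.03 and 5.39. FL81_14277 and FL81_21694 met the ratio and were outside, with 4.99 and 4.93.

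Replicates 7 and 8 of the heat, control and ancestor populations played no part in the choice of the genes, although the oxidative libraries did. These 6 libraries held 6718320 to 15755610 gene counts, against 3103341 to 5754254 in the oxidative ones. The oxidative population has no replicate 7 or 8. Traits of these replicates and differences between populations can therefore not be told apart here. In plain CPM all 6 of these libraries lay above all 6 oxidative libraries in 21 of the 38 genes, against 4.59% of genes tested. Their mean was at least 2 times the oxidative mean in 25 of the 38 genes, against 2.54% of genes tested. In scaled CPM the counts were 28 (8.28% of genes tested) and 30 (6.59%). The mean of replicates 7 and 8 was also set against 2 times the oxidative mean by population. In scaled CPM it reached that in 33 genes in heat (6.47% of genes tested), 27 in control (9.17%) and 32 in ancestor larvae (5.11%). In plain CPM it did so in 25 genes in heat (2.74%), 19 in control (3.00%) and 24 in ancestor larvae (2.49%). In 15 genes it did so in all 3 populations in plain CPM. In control it lay below the oxidative mean in 8 genes in plain CPM. The shares of all genes tested for these counts of 15 and 8 are not given here, so nothing is read from them. Because the oxidative libraries were used in the choice, these counts are given without a test.

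The largest ratios of these 6 libraries to the oxidative mean were in FL81_05164 (15.2-fold in scaled CPM), FL81_19375 (10.4-fold) and FL81_18098 (10.3-fold). The smallest were in FL81_22810 (0.807-fold), FL81_13906 (1.04-fold) and FL81_04806 (1.07-fold). FL81_22810 was the only one of the 38 whose mean over the 6 libraries lay below the oxidative mean in scaled CPM, and in plain CPM there were 4 such genes. The shares of all genes tested are not given for these counts.

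**Figure D4:**
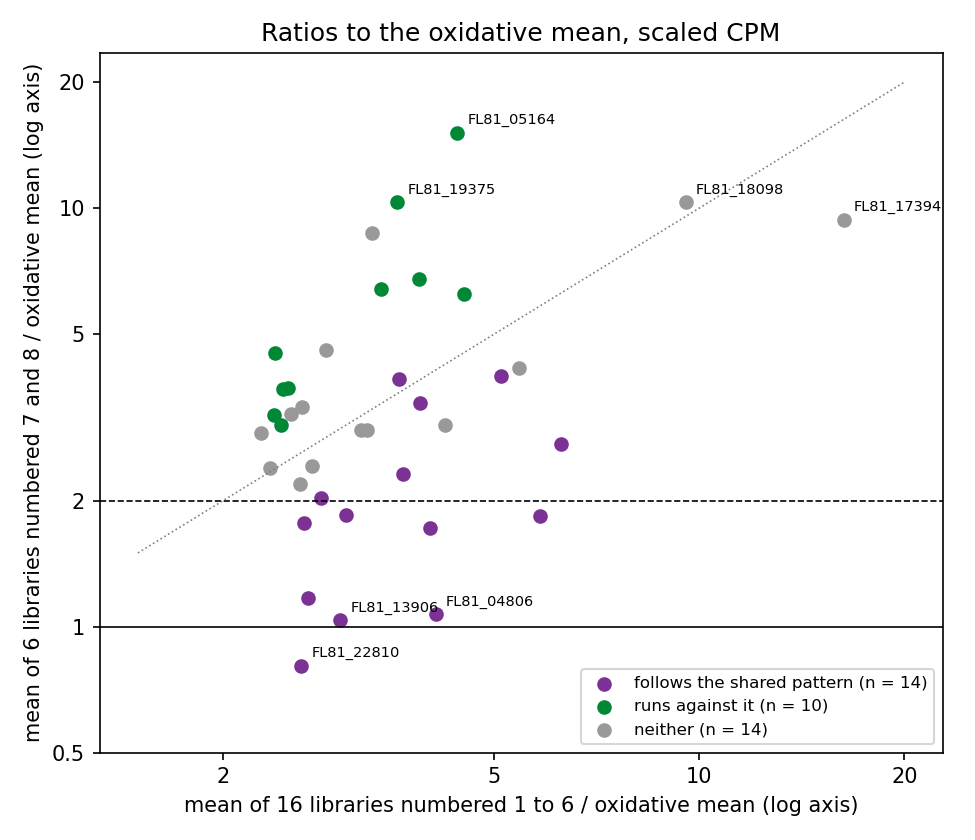
For each of the 38 genes, the mean of the 16 heat, control and ancestor libraries that the rule used is plotted on the horizontal axis and that of the 6 libraries numbered 7 and 8 on the vertical axis, both divided by the oxidative mean in scaled CPM on log axes. The dotted line marks equal ratios, the dashed line a ratio of 2 and the solid line a ratio of 1; FL81_22810 lies under the solid line at 0.807, and FL81_05164 is highest at 15.2.

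The 3 other populations were compared with one another for these genes, a contrast on which the rule set no limit. Between heat and control larvae 1 of the 38 genes differed, against 0.753% of genes tested (edgeR, adjusted p under 0.05). This was FL81_21096, which was lower in heat larvae, at 5.13 ± 1.66 scaled CPM (SD, n = 8), than in control larvae, at 9.61 ± 2.90 (n = 8); the log2 fold change was -0.90 (SE 0.21, edgeR adjusted p = 0.0304). Heat replicate 2, at 8.26, was the highest heat library and control replicate 8, at 4.86, the lowest control library, and the populations overlapped at these ends. The call ended without control replicate 1, 5 or 6 or without heat replicate 3, 4 or 5 (edgeR adjusted p between 0.0532 and 0.0738). It also ended with all of heat replicates 3 to 6 left out (-0.84, edgeR adjusted p = 0.718), with no filter on low counts (edgeR adjusted p = 0.0528) and in a fit of these 2 populations alone (edgeR adjusted p = 0.131). The median log2 fold change of the 38 genes was 0.02, with 19 of them below 0.

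Between heat and ancestor larvae 2 of the 38 genes differed, against 0.385% of genes tested, and both were higher in heat larvae. FL81_20853 averaged 142 ± 65.6 scaled CPM in heat larvae (SD, n = 8) and 42.6 ± 14.3 in ancestor larvae (n = 6), which is a log2 fold change of 1.73 with an SE of 0.33 (edgeR adjusted p = 0.00646). FL81_17394 averaged 225 ± 138 in heat and 61.2 ± 30.6 in ancestor larvae, which is a log2 fold change of 1.88 with an SE of 0.39 (edgeR adjusted p = 0.0188). In both genes heat replicates 3 to 6 lay above the other 4 heat libraries, at 155 to 261 against 50.1 to 139 scaled CPM in FL81_20853. Without these 4 libraries neither was called (log2 fold change 1.12, edgeR adjusted p = 0.599 for FL81_20853, and 0.78, edgeR adjusted p = 1.00 for FL81_17394). The call of FL81_17394 also ended without any 1 of ancestor replicates 3 to 7 or heat replicate 4 (edgeR adjusted p between 0.0526 and 0.0693), with no filter (edgeR adjusted p = 0.101) and in a fit of these 2 populations alone (edgeR adjusted p = 0.122). That of FL81_20853 held without any single library. The median log2 fold change of the 38 genes was 0.01.

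Between control and ancestor larvae edgeR called none of the 38 genes, against 0.0586% of genes tested. At an unadjusted p under 0.05 in edgeR there were 6, against 3.95% of genes tested. DESeq2 called 1 and limma-voom with sample weights 2, and their shares over all genes tested are not given here. The gene that DESeq2 called was FL81_21096, at 9.61 ± 2.90 scaled CPM in control larvae and 5.03 ± 0.950 in ancestor larvae, a log2 fold change of 0.90 with an SE of 0.22 (edgeR adjusted p = 0.151). The median log2 fold change of the 38 genes was 0.14, with 13 of them below 0.

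Among the 3 populations in which the genes were expressed at a higher level, no population was uniformly highest. In scaled CPM the highest mean was in heat for 14 genes, in control for 15 and in ancestor larvae for 9, and the lowest in heat for 14, control for 9 and ancestor for 15. Heat replicates 3 to 6 lay above the 4 other heat libraries in 3 of the 38 genes, against 4.41% of genes tested. Besides the 2 genes given above this was FL81_12485, at 42.5 to 57.1 against 13.7 to 28.6 scaled CPM. They lay below the 4 others in FL81_23276, FL81_15536 and FL81_16630, against 2.52% of genes tested.

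The 38 genes did not vary together as 1 group from library to library. Over the 22 libraries outside the oxidative population, the median Pearson's r over their 703 pairs was 0.132 in log2 plain CPM, against 0.235 over pairs of all genes tested. In scaled CPM it was 0.0045, against 0. Over the 6 oxidative libraries the median was 0.11 in plain CPM, against 0.18. These correlations are descriptions, and the points share their libraries' depth and composition.

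Instead, the genes fell along a leading pattern with opposite ends. That pattern held 54.0% of the variance of the 38 genes among the 22 libraries (scaled CPM, deviations from each population's mean). A correlation with it above 0.5 was found in 14 of the 38 genes and one below -0.5 in 10, against 31.2% and 25.6% of genes tested, so that the 38 genes are close to the background in this respect. The genes that followed it included FL81_04914 (r = 0.89), FL81_00659 (0.88), FL81_23244 (0.87), FL81_13906 (0.86), FL81_04915 (0.85) and FL81_22810 (0.85). Those that ran against it included FL81_24809 (-0.92), FL81_07084 (-0.92), FL81_19375 (-0.91), FL81_13999 (-0.89) and FL81_05164 (-0.86). All these r are over 22 libraries, from which the pattern was itself computed.

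Libraries high on the pattern were heat replicate 1 (score 5.92), control replicate 2 (4.91) and ancestor replicate 5 (4.70). Libraries low on it were control replicates 8 (-5.46) and 7 (-5.12), heat replicate 7 (-4.29) and ancestor replicate 8 (-3.93). The 14 genes that followed it summed to 1157 scaled CPM in heat replicate 1 and to 256 in control replicate 8, and the 10 that ran against it to 329.5 and 4607 in these libraries. Most of the second pair of sums was FL81_19375, and without it the other 9 genes summed to 58.2 and 336.2. On the scaled CPM scale the mean of the libraries numbered 7 and 8 lay below that of the other 16 in 13 of the 14 genes that followed the pattern (all but FL81_03024; median ratio 0.525) and in 0 of the 10 that ran against it (median ratio 1.63). The median ratio over all genes tested was 0.943. The same libraries made the pattern, so this describes its ends. Of the 7 genes that were not called lower in all 3 comparisons, 7 were among the 14. The pattern and the fit used the same 22 libraries, and the share over all genes tested is not given here. Nothing is therefore read from this count.

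The median spread within a population was smallest in oxidative larvae, for these genes and over all genes tested. The median coefficient of variation of the 38 genes in scaled CPM was 25.3% in oxidative, 40.6% in heat, 41.2% in control and 38.3% in ancestor larvae. Over all genes tested it was 20.2%, 33.1%, 29.3% and 30.1% in the same order. The oxidative population had the smallest coefficient of variation in 25 of the 38 genes, against 63.7% of all genes tested. The values of the other populations include libraries numbered 7 and 8, which the oxidative population lacks. Over the libraries that the rule used, a comparison added after the values were seen, the medians of the 38 genes were 25.3% in oxidative, 36.7% in heat, 32.8% in control and 35.7% in ancestor larvae, and over all genes tested 20.2%, 32.9%, 24.7% and 27.0%. The oxidative population then had the smallest coefficient of variation in 19 of the 38 genes, against 48.7% of all genes tested. The widest oxidative spread among the genes named by the rule (by coefficient of variation) was in FL81_22810, at 0.516 to 3.62 scaled CPM.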

How the data were processed

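Raw counts of reads per gene identifier were deposited by the authors for each of the 28 libraries; GSNAP did the alignment and HTSeq the counting, per the submitters' processing notes. Neither the build of the genome nor its annotation nor the handling of strand is given in the sources used here, so reads of overlapping genes on opposite strands may not be told apart. The 5 summary lines of each table were left out of library sizes and tests; reads without a gene are given in the results as shares of all reads. CPM were computed as counts per 1000000 gene counts, and scaled CPM with edgeR's TMM factors.

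The counts were fitted in R 4.3.3 with edgeR 4.0.16 (robust quasi-likelihood, filterByExpr with a minimum count of 10, 11952 genes kept, 1 coefficient per population over all 28 libraries), with Benjamini-Hochberg adjustment over all genes tested at 0.05. DESeq2 1.42.0, limma-voom with sample weights (limma 3.58.1), no filter, other sets of libraries and leaving out each library were tried. Log values for correlations used a pseudocount of 0.5 CPM. Python 3.11.15 with pandas 2.3.3 and matplotlib 3.10.9 made the summaries and plots. Chi-square per degree of freedom over 86 pairs of libraries of the same population was 2.09 to 96.1, so each library was counted as 1 sample. The CPM that 3 counts are worth, given in the results, shows how coarse low levels are.

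The 38 genes, the groups of genes and the tests were chosen with earlier results of these data known. A rule chose which genes to name: the lowest ratios, the highest levels, the genes next to the limits, the genes called among the 3 other populations, the widest and narrowest oxidative spread, the lowest and highest ratios in the libraries not used, and consecutive identifiers. It named 22 of the 38. The other 16 were named after their values were seen, as were the levels in scaled CPM and the leading pattern.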

Additional observations from a re-analysis of the deposited data

Results flagged for a closer look

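In each population the highest and the lowest library of each gene were compared with the nearest other library by Dixon's criterion at 95%. Of 156 groups examined (38 genes and their summed share in 4 populations), 11 were marked, and chance marks about 1 in 20 groups. No marked library was oxidative. Levels are in scaled CPM.

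Heat replicate 1 stood apart in 3 genes. It was low in FL81_12468, at 2.65 against 7.39 to 10.8 in the other heat libraries. It was high in FL81_24596, at 23.4 against 2.87 to 7.47, and in FL81_01128, at 39.7 against 7.01 to 19.1. Control replicate 2 was also high in FL81_01128, at 65.0 against 9.57 to 32.7. Control replicate 8 was high in FL81_05164, at 78.1 against 3.58 to 36.8, and in the summed share of the 38 genes, at 0.417% of gene counts against 0.252% to 0.307%.

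In the ancestor, replicate 8 was high in FL81_17394, at 119 against 35.9 to 66.2, and in FL81_14783, at 185 against 76.5 to 90.6. Replicate 7 was low in FL81_21096, at 3.17 against 5.00 to 5.80, and in FL81_24706, at 2.45 against 5.61 to 6.98. Replicate 5 was high in FL81_22810, at 18.4 against 1.07 to 6.58.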

How the results depend on the processing

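The list of genes depended on its limits. It held 38 genes, against 46 with scaled CPM (37 shared), 52 with all libraries (29 shared), 33 with replicates 3 to 6 alone (24 shared), 35 without heat replicates 3 to 6 (31 shared), 23 with medians in place of means (18 shared), 150 with a floor of 1 CPM, 25 with a floor of 10 CPM, and 26 to 49 when 1 library was left out. All 22 of these single omissions kept 15 of the 38 genes. The low counts behind genes near the floor limit how firmly they can be placed.

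Heat against control called 1 of the 38 genes, against 2 with DESeq2, 0 with no filter, 7 with limma-voom with sample weights, 0 in a fit of the 2 populations alone, 5 with replicates 1 to 6 alone, 0 without heat replicates 3 to 6, and 0 to 2 without 1 library. Control against ancestor called 0, against 1 with DESeq2, 2 with limma-voom with sample weights, 2 with replicates 1 to 6 alone, and 0 to 1 without 1 library. At an unadjusted p under 0.05 in edgeR there were 6 in that comparison, against 3.95% of genes tested. Heat against ancestor called 2, against 4 with DESeq2, 1 with no filter, 4 with limma-voom with sample weights, 1 in a fit of the 2 populations alone, 4 with replicates 1 to 6 alone, 0 without heat replicates 3 to 6, and 1 to 3 without 1 library. The shares of all genes called under these alternative fits are not given here, so the counts cannot be set against a background. The cause of these differences was not tested. The log2 fold change without 1 library was -1.01 to -0.79 for FL81_21096 in heat against control, and in heat against ancestor 1.71 to 2.19 for FL81_17394 and 1.55 to 1.89 for FL81_20853.

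The count of genes called lower in oxidative larvae than in each other population was 31, and 26 to 33 under the alternatives tried, 27 to 32 of them without 1 library. The counts of 21 and 25 in replicates 7 and 8 were 28 and 30 with scaled CPM, and 21 to 23 and 24 to 26 without 1 oxidative library. Beyond the main settings and scaled CPM, the shares of all genes tested are not given for these counts. Without FL81_19375 the mean shares of gene counts were 0.0450% in oxidative, 0.150% in heat, 0.149% in control and 0.121% in ancestor libraries.

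The labels name no batch or origin that replicate numbers share, and not every pair of libraries with the same number correlated above 0.1, so the numbers were not taken to pair the samples. Of 36 pairs of libraries with the same number in 2 populations, 20 had deviations that correlated above 0.1 (range -0.35 to 0.67). They were 7 of 8 between heat and control, 4 of 6 between heat and ancestor and 4 of 6 between control and ancestor libraries. With oxidative libraries they were 2 of 6 for heat, 2 of 6 for control and 1 of 4 for ancestor libraries. A library's best match in another population carried its own number in 24 of 72 cases, which is a hint from the data and not from the design. The number of such cases to be had by chance was not worked out. With the replicate number as a block, heat against control called 2 of the 38 genes, control against ancestor 0 and heat against ancestor 3, and 33 were called lower in oxidative larvae than in each other population. The shares of all genes called in that fit are not given here.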
